A study of Homo sapiens with 16 samples.

Results

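G401 cells carrying BRD9 KO were compared with LacZ control cells on day 2, across all genes with enough counts. The 4 day 2 libraries, 2 of BRD9 KO and 2 of LacZ, were taken by their labels from a series of 16. The series holds RNA sequencing libraries of G401 cells on days 1, 2, 3 and 5. G401 is an established line of kidney rhabdoid tumor cells that carries a SMARCB1 mutation, a feature shared by both groups. By the study's methods the cells stably carried Cas9 under blasticidin and then took up a lentiviral guide under puromycin. LacZ, the target named for the control cells, is a gene of bacteria. The day from which the time is counted is not given in the sources used here. The study's methods call the 2 libraries of a group biological replicates without saying how the cultures were kept apart. The p-values measure the spread between libraries of a group, estimated jointly over the 16 libraries of all days. Rose, fell, higher and lower refer to BRD9 KO against LacZ on the same day unless a change between days is named.

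BRD9 is a bromodomain protein of SWI/SNF, the family of chromatin remodeling complexes that slide or evict nucleosomes with the ATPases SMARCA4 or SMARCA2. SWI/SNF occurs in several assemblies, and BRD9 belongs to a form without SMARCB1 and without the ARID subunits, called ncBAF or GBAF, which is built around GLTSCR1 or GLTSCR1L. Rhabdoid tumors lose SMARCB1, and the BRD9-containing form is one of the assemblies that these cells retain.

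The 4 libraries held 11019386 to 14333947 counts each, where a count is the number of reads that the quantification gave to a gene, rounded to a whole number. SMARCB1 had 0 counts in all 4 libraries, while VIM, KRT8 and KRT18, which rhabdoid cells make, had at least 20170 counts in each. CDH5, KDR, TEK, PTPRC, CD3E and HBB, markers of endothelial and blood cells, had 0 counts in all 4, while VWF had 7 to 18 counts and CD14 had 0 or 1. Of 12 endothelial markers 7 or 8 were at 0, with a summed level of 1.43 to 2.37 CPM. CPM is a gene's counts scaled to a common library total. Of 16 blood cell markers 8 to 10 were at 0, and their summed level was 134 and 136 CPM in BRD9 KO and 128 and 132 CPM in LacZ libraries, most of it from CD68, a lysosomal protein of macrophages with 121 to 129 CPM that was not called. The part of these markers in the results was not tested. Of the kidney lineage factors, PAX8 and WT1 had 0 counts in all 4 libraries and PAX2 had 34 to 63. For genes with at least 100 counts the median spread between the 2 libraries was 1.15 times counting noise in BRD9 KO and 1.10 times in LacZ, and the common biological coefficient of variation of the fit was 0.023. Differences of a few percent could therefore pass the test in abundant genes.

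BRD9 KO and LacZ cells differed on day 2 mainly by small shifts in many abundant genes and by larger falls in a few. Of 15027 genes tested with edgeR's quasi-likelihood test, 406 were called at an adjusted p under 0.05 (2.7%), 169 of them higher (1.12%) and 237 lower (1.58%) in BRD9 KO. The median size of a called change was 0.199 on the log2 scale, 205 of the 406 were under 0.2, and 42 reached 0.5. Of the 16 that reached a log2 change of 1, 8 had a mean level of at least 1 on the log2 CPM scale, and only 1 of those 8 was higher. Among the 406 called genes, 6 had 0 counts in both libraries of 1 group and between 5 and 52 counts in the libraries of the other group, so their fitted folds are not quoted. The libraries of the 2 groups did not overlap for any of the 406 called genes, beside 42.4% of all genes tested without overlap.

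The called genes were abundant. The test called 0.272% of the genes under a log2 CPM of 2, 0.95% of those from 2 to 5, 3.68% of those from 5 to 8 and 21.6% of the 647 genes from 8 upward. The median called change was 0.521 in the bin from 2 to 5 and 0.122 in the most abundant bin. Of the called genes whose type the annotation gives, 91.5% of the higher and 96.6% of the lower were protein coding, beside 83.4% of all genes tested. The median gene length in the tables was 2865 bases for the higher and 2283 bases for the lower genes, beside 2119 bases for all genes tested.

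**Figure D1:**
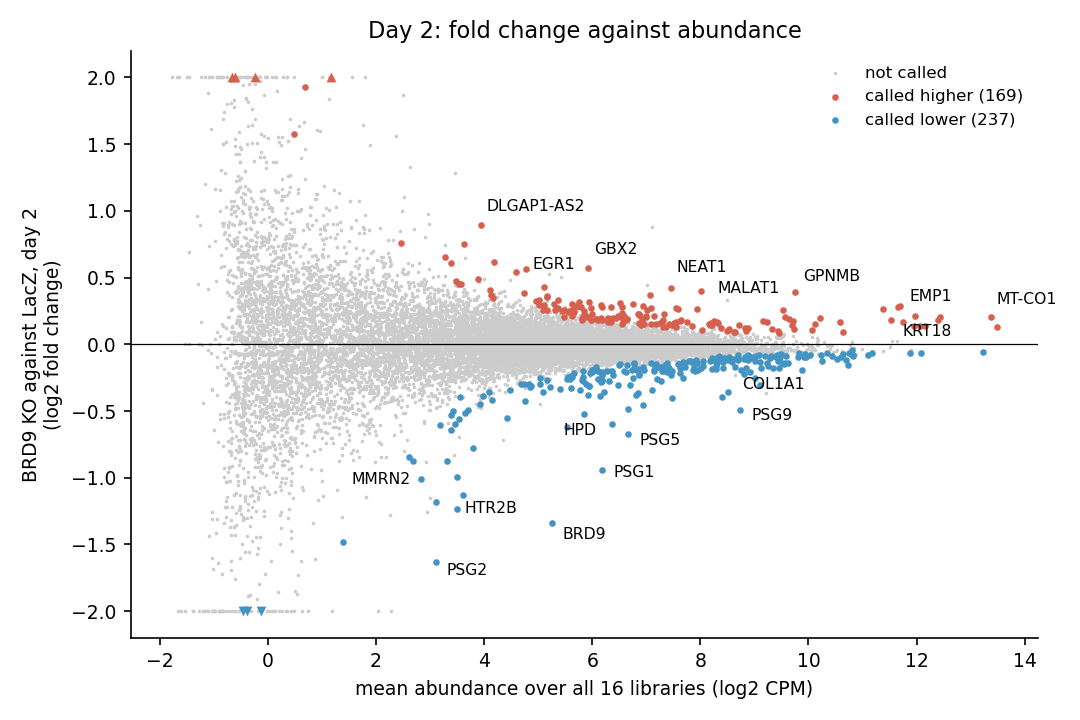
Log2 fold change of BRD9 KO against LacZ on day 2 (vertical axis) against mean abundance over the 16 libraries in log2 CPM (horizontal axis), 1 point per gene; colored points are the 169 genes called higher and the 237 called lower, and points on the edges lie beyond a log2 change of 2, with triangles for called genes. BRD9, PSG2, PSG6, HTR2B and PSG11 are the lowest called genes with a log2 CPM of at least 1, and the called genes above a log2 CPM of 8 lie close to 0.

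BRD9 itself (ENSG00000028310.13, GRCh37 chr5:850406-892916, minus strand) was measured first as a check of the labels. Its level was 19.96 and 16.61 CPM in the BRD9 KO libraries and 45.8 and 47.6 CPM in the LacZ libraries. Both BRD9 KO libraries stood below both LacZ libraries, at 39.6% of the control level by the fit (log2 fold change -1.34 ± 0.08 SE, edgeR adjusted p = 3.77e-09). The RNA of the targeted gene was lowered and still detected, and protein was not measured in these libraries.

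Few of the other SWI/SNF subunits passed the test. Of 11 ncBAF and shared subunits tested, BRD9, the targeted gene itself, and SMARCA4 were lower and none was higher. The share of 18.2%, beside 1.58% of all genes, thus includes the target. The median log2 change of the 11 was -0.007 and the highest was 0.34, with 1 member higher at an unadjusted edgeR p under 0.05. DESeq2 gave 6 of the 11 no adjusted p. SMARCA4, the ATPase, had 622 and 624 CPM in BRD9 KO and 664 and 656 CPM in LacZ libraries. Its groups did not overlap, and its log2 fold change was -0.08 ± 0.02 SE (adjusted p = 0.0288). Of 13 canonical BAF and PBAF subunits, 1 was lower (7.69%, beside 1.58% of all genes). It was ARID1A, the DNA-binding subunit of canonical BAF, with a log2 fold change of -0.14 (adjusted p = 0.0225). SMARCA4 and ARID1A each lost the call when any of the 4 libraries was left out, with adjusted p up to 0.21 for SMARCA4 (without LacZ replicate 1) and up to 0.172 for ARID1A (without BRD9 KO replicate 2). SS18 and SMARCC1, core members that BRD9 works beside, had log2 fold changes of -0.01 and 0.02 and were not called. Among 17 tested neighbours of BRD9 on the short arm of chromosome 5, 1 was called (5.88%, beside 2.7% of all genes). It was PLEKHG4B, with a log2 fold change of -0.22 (adjusted p = 0.00537, and 0.0864 without BRD9 KO replicate 2 and 0.0648 without LacZ replicate 2).

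The pregnancy-specific glycoprotein genes formed the group with the largest falls on day 2. PSG proteins are secreted members of the CEACAM family, known mainly from the placenta, and their genes lie in a tandem cluster on the long arm of chromosome 19. Of 12 tested members of the list of PSG and CEACAM relatives, 9 were lower and none was higher (75%, beside 1.58% of all genes called lower), and all 9 were PSG genes. The median log2 change of the 12 was -0.725, beside 0 for all genes tested. The PSG genes are near-copies of each other, and the 150 bases before their start sites show how close. These sequences are from GRCh37 before the start of each gene's canonical transcript in GENCODE, and are shown for 3 genes with the smallest p-values in the list, for the one with the largest fall and for the tested PSG gene that was not called. All 5 lie on the minus strand. Capitals mark a run of 29 bases that is identical in the windows of all 10 tested PSG genes:

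PSG1 (chr19:43383866-43384015, minus strand): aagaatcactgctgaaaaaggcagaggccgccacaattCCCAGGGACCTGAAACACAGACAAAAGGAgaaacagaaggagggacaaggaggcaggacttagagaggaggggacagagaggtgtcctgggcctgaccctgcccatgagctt
PSG2 (chr19:43586854-43587003, minus strand): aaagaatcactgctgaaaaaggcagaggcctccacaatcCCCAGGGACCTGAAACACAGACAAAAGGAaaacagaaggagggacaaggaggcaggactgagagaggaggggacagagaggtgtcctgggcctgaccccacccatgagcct
PSG5 (chr19:43690689-43690838, minus strand): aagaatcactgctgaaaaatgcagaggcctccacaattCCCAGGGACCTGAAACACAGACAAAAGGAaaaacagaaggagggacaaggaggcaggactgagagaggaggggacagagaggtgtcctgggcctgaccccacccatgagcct
PSG9 (chr19:43773683-43773832, minus strand): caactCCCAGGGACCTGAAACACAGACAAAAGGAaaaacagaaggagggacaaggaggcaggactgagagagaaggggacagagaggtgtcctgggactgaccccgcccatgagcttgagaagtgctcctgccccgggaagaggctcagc
PSG4 (chr19:43709791-43709940, minus strand): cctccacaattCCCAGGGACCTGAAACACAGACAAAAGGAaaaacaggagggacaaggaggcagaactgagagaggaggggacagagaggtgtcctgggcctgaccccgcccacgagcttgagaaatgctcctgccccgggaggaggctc

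Aligned to the PSG1 window, the windows of the other 9 tested PSG genes were 92.7% to 97.5% identical over 114 to 149 aligned columns. PSG4, which was not called on day 2, carries the same run as the 9 that fell, and its window was 92.7% identical to that of PSG1. This similarity extends into the transcripts: of all stretches of 76 bases, the read length implied by the tables, 6.3% in the transcripts of PSG4, the lowest share of the 10, and 12.7% in those of PSG1 also occur in another PSG gene, and the share was highest in PSG8. Reads from such stretches were divided between genes by estimation, so the level of a single PSG gene is less certain than that of the group.

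PSG9 (chr19:43715943-43773682) was the most abundant of them. It had 361.7 and 361.5 CPM in BRD9 KO libraries and 503 and 513 CPM in LacZ libraries, and the groups were far apart relative to their spread (log2 fold change -0.49 ± 0.02 SE, adjusted p = 6.78e-11). PSG1 (chr19:43370616-43383974) had 53.9 and 53.7 CPM in BRD9 KO and 100.8 and 107 CPM in LacZ libraries, so that the level was 51.9% of the control (log2 fold change -0.95 ± 0.04 SE, adjusted p = 1.52e-10). PSG5 (chr19:43670408-43690688) had 65.1 and 66.0 CPM in BRD9 KO and 103 and 106 CPM in LacZ libraries (log2 fold change -0.67 ± 0.05 SE, adjusted p = 2.71e-07). In all 3 genes both BRD9 KO libraries lay below both LacZ libraries. Their calls held without any one of the 4 libraries and with DESeq2 and limma.

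The other 6 PSG genes that fell were less abundant, and their log2 changes ran from -1.63 to -0.60. PSG2 had 3.51 and 4.13 CPM in BRD9 KO and 11.6 and 11.9 CPM in LacZ libraries, a level 32.3% of the control (log2 fold change -1.63 ± 0.16 SE, adjusted p = 3.37e-06). PSG6 stood at -1.48, PSG11 at -1.18, PSG7 at -0.998, PSG3 at -0.78 and PSG8 at -0.60 on the log2 scale of the fold change, with PSG3 and PSG8 named after their values were seen. PSG3 had 12.3 and 12.3 CPM in BRD9 KO and 24.2 and 17.6 CPM in LacZ libraries, so its controls lay apart from each other without reaching the BRD9 KO level. PSG4, with 175 and 176 CPM in BRD9 KO and 182 and 180 CPM in LacZ libraries, did not pass the test although its groups did not overlap (log2 fold change -0.04 ± 0.03 SE, adjusted p = 0.665), and it was called lower on day 3 (-0.20, adjusted p = 0.000718). PSG6 lost its call without BRD9 KO replicate 2 (adjusted p = 0.0961) or LacZ replicate 1 (0.0673), and PSG8 without BRD9 KO replicate 1 (0.324) or LacZ replicate 2 (0.227). Leaving out any one of the day 2 libraries left 8 members called. DESeq2 called 3 of the 12 and gave no adjusted p to 8 of them, and limma on TPM called 5.

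The PSG difference grew between days 1 and 2. On day 1 none of the 12 list members was called by edgeR (0.539% of all genes were, 0.273% higher and 0.266% lower), and the median log2 change was -0.069, with 3 of the 12 above 0. On day 3, 10 were lower (5.85% of all genes were lower, 4.59% higher and 10.4% called), with a median of -1.096. The effect on day 2 was below that on day 1 by the interaction test in 6 of the 12, namely PSG1, PSG2, PSG3, PSG5, PSG7 and PSG9, where the difference was -0.81 for PSG1, -1.45 for PSG2 and -0.47 for PSG9 (adjusted p = 3.33e-07, 0.00117 and 5.98e-08). The effect on day 3 was below that on day 2 in PSG1, PSG5 and PSG9, by -0.61, -0.53 and -0.60 (adjusted p = 0.000268, 0.00146 and 3.39e-09). The control level was not constant either. PSG1 in LacZ libraries was 137 and 137 CPM on day 1, 100.8 and 107 CPM on day 2 and 52.8 and 50.4 CPM on day 3, and in BRD9 KO libraries it was 123 and 126, then 53.9 and 53.7, then 16.5 and 18.9 CPM. The day 1 difference of PSG1 was -0.14 ± 0.04 SE on the log2 scale (adjusted p = 0.129, unadjusted p = 0.00159 by the same fit), and its groups did not overlap then either. From day 1 to day 2 PSG1 fell by 0.40 on the log2 scale in LacZ cells (adjusted p = 1.64e-07) and by 1.21 in BRD9 KO cells.

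**Figure D2:**
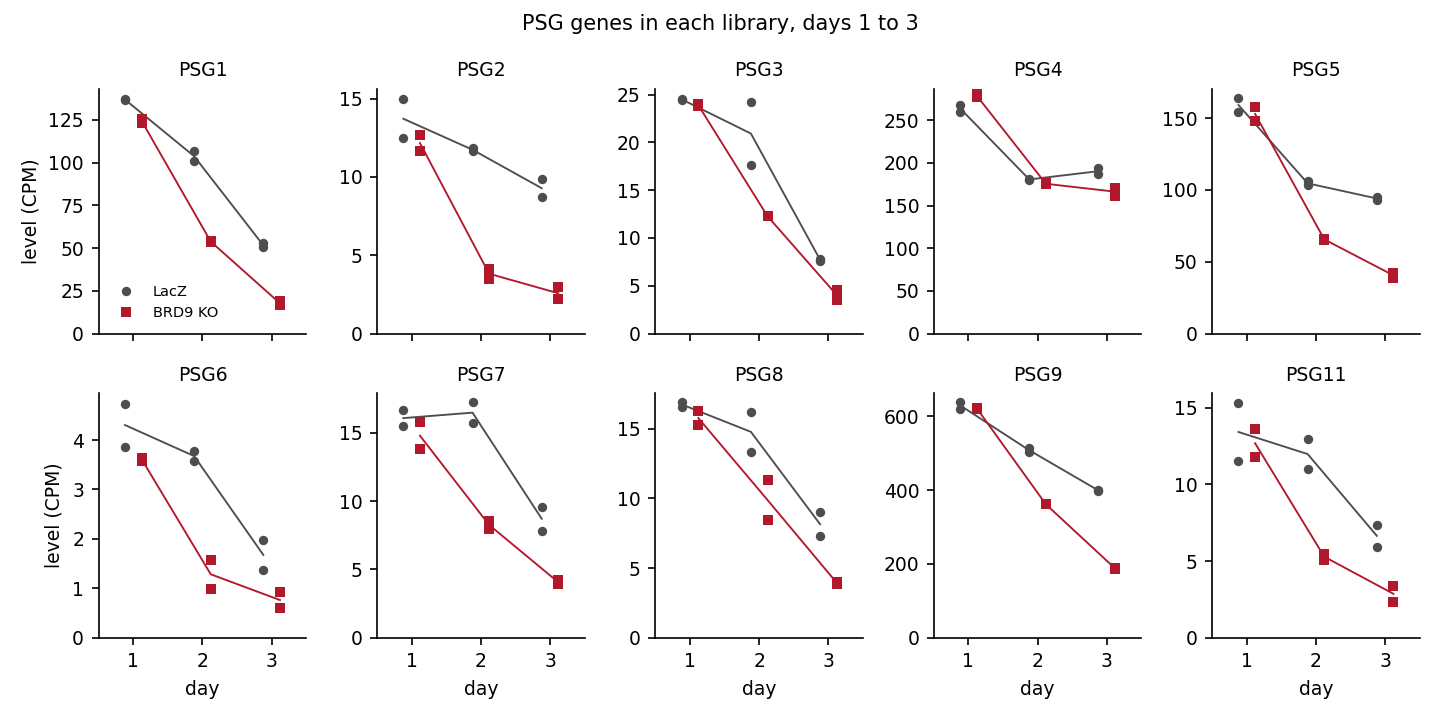
Level of each tested PSG gene in CPM (vertical axes, each from 0) on days 1, 2 and 3 (horizontal axis); gray circles are LacZ and red squares BRD9 KO libraries, 2 per group and day, and lines join the group means. On day 1 the groups lie close together, on day 2 both BRD9 KO libraries lie below both LacZ libraries in every panel, and PSG4 is the one gene among the 10 where the day 2 difference was not called.

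The mitochondrial genome's mRNAs moved the other way. These 13 mRNAs encode subunits of the respiratory chain and of ATP synthase and are cut from long shared transcripts, so they are not independent measurements. All 13 were higher in BRD9 KO on day 2 (100%, beside 1.12% of all genes called higher), with log2 changes from 0.12 to 0.28 and a median of 0.195. MT-CO1, a subunit of cytochrome c oxidase, had 10270 and 10420 CPM in BRD9 KO and 9038 and 8927 CPM in LacZ libraries, and its groups did not overlap (log2 fold change 0.20 ± 0.01 SE, adjusted p = 1.18e-08). MT-ND1 and MT-ND5, subunits of complex I, had the largest log2 changes of the 13, 0.28 ± 0.02 SE (adjusted p = 6.84e-08) and 0.26 ± 0.02 SE (adjusted p = 3.63e-08). The mitochondrial ribosomal RNAs MT-RNR1 and MT-RNR2, named after their values were seen, were also higher, by 0.11 and 0.13. DESeq2 called all 13 mRNAs, limma on TPM called 12, and 12 or 13 stayed called when 1 day 2 library was left out.

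The rise was larger than on day 1 in some of these genes and larger than on day 3 in nearly all. As a share of all counts the 13 mRNAs were 4.579% and 4.599% in BRD9 KO and 4.002% and 4.010% in LacZ libraries on day 2. On day 1 the shares were 5.38% and 5.28% against 5.14% and 5.09%, and on day 3 they were 4.58% and 4.78% against 4.70% and 4.73%. The LacZ share on day 2 was thus the lowest of the 3 days, and the BRD9 KO share on day 2 lay near that of day 3. Of the 13, 2 were called higher on day 1, and on day 3 none was higher and 2 were lower. The effect on day 2 exceeded that on day 1 in 5, MT-CO1, MT-ND1 and MT-ND5 among them, by 0.15, 0.22 and 0.17 on the log2 scale (adjusted p = 0.000175, 0.000359 and 0.00205). The effect on day 3 was below that on day 2 in 12 of the 13, by 0.26 for MT-CO1 (a difference of -0.26, adjusted p = 2.37e-07).

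Nuclear genes for the same organelle did not rise. None of 76 nuclear oxidative phosphorylation genes and none of 75 mitochondrial ribosomal protein genes was called by edgeR on day 2. At an unadjusted p under 0.05, 0 and 11 of the 76, and 0 and 10 of the 75, were higher and lower, beside 998 and 1079 of all 15027 genes. DESeq2 and limma called none in either list, but DESeq2 gave no adjusted p to 6 of the 76 and 29 of the 75. Their median log2 changes were -0.032 and -0.044.

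**Figure D3:**
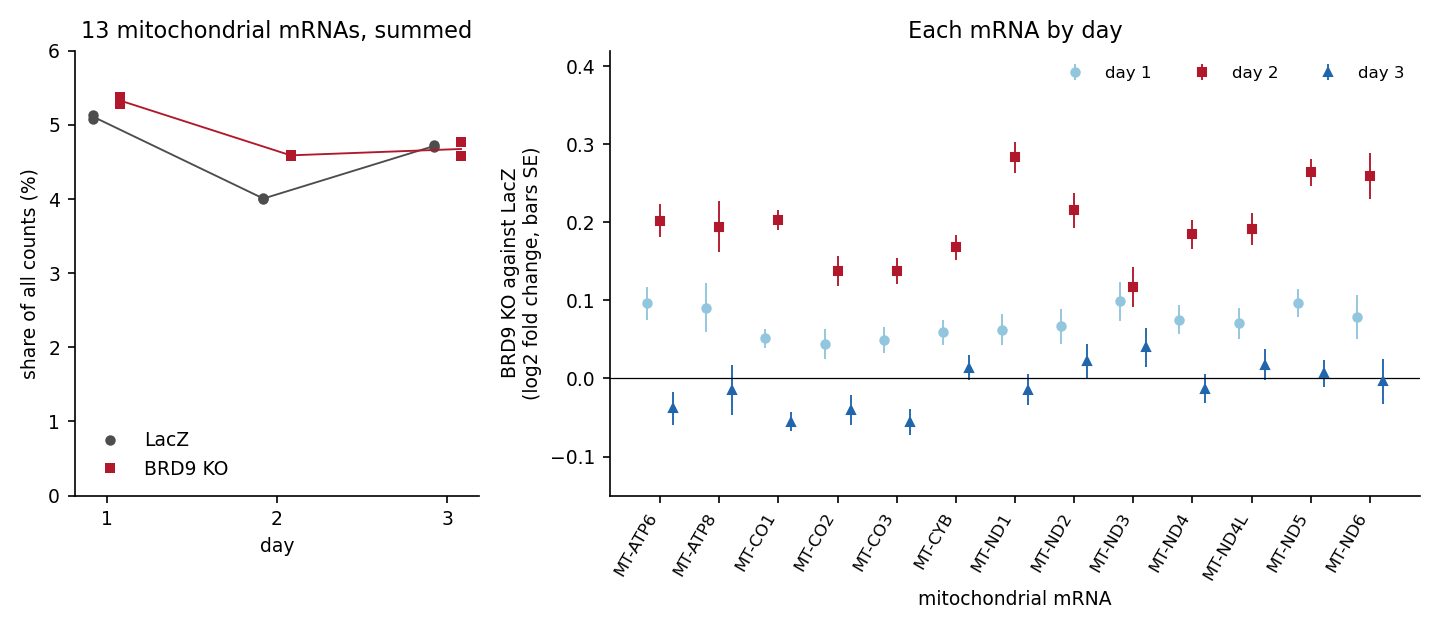
Left, share of all counts taken by the 13 mitochondrial mRNAs (percent) by day in each LacZ (gray) and BRD9 KO (red) library, with lines through the group means; right, log2 fold change of BRD9 KO against LacZ for each of the 13 mRNAs on days 1, 2 and 3 with standard errors. On day 2 all 13 lie between 0.12 and 0.28, while on day 3 they lie near 0, and in the left panel the LacZ libraries dip to about 4.0% on day 2.

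Beside these, 2 long nuclear RNAs rose. NEAT1, the scaffold of paraspeckles, had 165 and 163 CPM in BRD9 KO and 119.8 and 126 CPM in LacZ libraries, without overlap (log2 fold change 0.42 ± 0.03 SE, adjusted p = 4.36e-07). MALAT1, a speckle RNA beside NEAT1 on chromosome 11, had 194 and 174 CPM against 140.2 and 139 CPM (0.40 ± 0.06 SE, adjusted p = 0.000238). On day 1 their log2 changes were -0.12 and -0.13, which did not pass the test, and their day 2 effects exceeded those of day 1 by 0.54 and 0.53 (adjusted p = 1.18e-05 and 0.00144). Limma on TPM called neither on day 2 (adjusted p = 0.13 and 0.0759).

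Outside the PSG cluster, genes of several families were lower on day 2, and a selection is given here. HTR2B, a serotonin receptor, had 6.54 and 6.73 CPM in BRD9 KO and 16.3 and 14.8 CPM in LacZ libraries, a level 42.6% of the control (log2 fold change -1.23 ± 0.12 SE, adjusted p = 3.3e-06). Its groups were well apart, and the effect was larger than on day 1 (difference -0.84, adjusted p = 0.0123). HPD, an enzyme of tyrosine breakdown, stood at 66.1% of the control, with 77.4 and 79.9 CPM in BRD9 KO against 119 and 119.0 CPM in LacZ libraries (adjusted p = 7.1e-09). From day 1 to day 2 HPD rose in both groups, by 0.60 on the log2 scale in LacZ cells (adjusted p = 4.23e-10) and by 0.17 in BRD9 KO cells (adjusted p = 0.00284). LIN28A, an RNA-binding protein of early development, changed by -0.46 on the log2 scale (adjusted p = 2.19e-05), and MEIS2, a HOX cofactor, by -0.31 (adjusted p = 0.000135). GAS7, TNNT2 and SNCG had log2 changes of -0.88, -0.64 and -0.87, and these 3 lost the call without BRD9 KO replicate 1 (adjusted p = 0.0816, 0.0906 and 0.0994), TNNT2 also without LacZ replicate 2 (0.0711). SNCG lies inside the span of MMRN2 on chromosome 10 on the other strand, and since the library kit does not keep the strand, their reads cannot be told apart where the 2 genes overlap. MMRN2 changed by -1.01 (adjusted p = 0.000503). DESeq2 gave MMRN2 no adjusted p, and limma on TPM did not call it (adjusted p = 0.351).

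Extracellular matrix genes moved in both directions. Of 30 tested matrix genes and matrix enzymes, 7 were lower and 2 higher on day 2 (23.3% and 6.67%, beside 1.58% and 1.12% of all genes), and the median log2 change of the 30 was -0.036. COL1A1, the main chain of type I collagen, had 353 and 357 CPM in BRD9 KO and 448 and 462 CPM in LacZ libraries. Both BRD9 KO libraries lay below both controls (log2 fold change -0.36 ± 0.03 SE, adjusted p = 2.25e-07), and the change grew from -0.06 on day 1 to -0.61 on day 3, each step being called by the interaction tests. MMRN1, a secreted multimerin, changed by -0.31 (adjusted p = 7.06e-08) and LOXL2, a collagen cross-linking oxidase, by -0.18 (adjusted p = 0.000159). The 2 that rose were NID1, a basement membrane linker, at 0.37 (adjusted p = 3.37e-06), and COL6A1 at 0.16 (adjusted p = 0.0241, and up to 0.204 without BRD9 KO replicate 2; LacZ replicates 1 and 2 also decided the call, at 0.2 and 0.0997). With 1 day 2 library left out, 4 to 7 of the list were lower, the fewest without LacZ replicate 2.

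The keratin pair that marks simple epithelia rose. KRT18 had 2730 and 2826 CPM in BRD9 KO and 2441 and 2452 CPM in LacZ libraries (log2 fold change 0.18 ± 0.01 SE, adjusted p = 1.92e-07), and its partner KRT8 changed by 0.14 (adjusted p = 1.68e-05). Their annotated spans overlap at one end on opposite strands, so a part of the reads may be shared. VIM, the mesenchymal filament, and DSP, a desmosome protein, were lower by small amounts, with log2 changes of -0.08 and -0.07 (adjusted p = 0.034 and 0.00417). KRT80, another keratin, was lower by more, with a log2 change of -0.52 (edgeR adjusted p = 0.0362). By the list counts at the end of this paragraph, KRT80 lost the call without any one library. VIM lost the call without BRD9 KO replicate 1 (adjusted p = 0.264), LacZ replicate 1 (0.081) or LacZ replicate 2 (0.205), and DSP without LacZ replicate 1 (0.0589). Of the 14 tested filament and junction genes, 2 were higher and 3 lower (14.3% and 21.4%, beside 1.12% and 1.58% of all genes), with a median of -0.035. The lower ones became 0 without LacZ replicate 1, 1 without BRD9 KO replicate 1 or LacZ replicate 2 and 2 without BRD9 KO replicate 2.

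The smallest p-value among the genes that rose was that of EMP1, a membrane protein of epithelia. It had 3209 and 3187 CPM in BRD9 KO and 2652 and 2630 CPM in LacZ libraries, without overlap (log2 fold change 0.28 ± 0.01 SE, adjusted p = 3.17e-11). GPNMB, a transmembrane glycoprotein of lysosomes and melanosomes, had 776 and 789 CPM against 602 and 589 CPM (0.39 ± 0.02 SE, adjusted p = 1.44e-10), and PLAU, the urokinase protease, changed by 0.21 (adjusted p = 2.71e-07). GPNMB moved on both sides of day 2: its effect exceeded that of day 1 by 0.34 (adjusted p = 4.79e-07) and was above that of day 3, where the difference was -0.17 (adjusted p = 0.00163).

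The highest folds were in less abundant genes. Among genes averaging a log2 CPM of 1 or more, and apart from RP11-598P20.5, which had 0 counts in both LacZ libraries, the highest was that of DLGAP1-AS2. DLGAP1-AS2, a non-coding RNA annotated antisense to DLGAP1, had 16.03 and 16.43 CPM in BRD9 KO and 8.64 and 8.78 CPM in LacZ libraries, 186% of the control (log2 fold change 0.90 ± 0.10 SE, adjusted p = 2.86e-05). DLGAP1-AS1, at 0.61, was called too, but not without BRD9 KO replicate 1 (adjusted p = 0.0671) or LacZ replicate 2 (0.0684). Without strand in the reads, these RNAs cannot be separated from DLGAP1 where they overlap. GBX2, a homeobox factor of the nervous system, had 53.1 and 59.6 CPM in BRD9 KO and 37.5 and 37.8 CPM in LacZ libraries (0.57 ± 0.07 SE, adjusted p = 0.000102). BCAN, a brain proteoglycan, and FGFR3, a growth factor receptor, stood at 0.65 and 0.54 with adjusted p of 0.0144 and 0.0205. BCAN lost the call without BRD9 KO replicate 1 (0.315), LacZ replicate 1 (0.131) or LacZ replicate 2 (0.0713), and FGFR3 without BRD9 KO replicate 2 (0.29), LacZ replicate 1 (0.183) or LacZ replicate 2 (0.0945).

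Immediate-early genes, which respond to growth factor and stress signals, were higher where they were called. Of 22 tested, 3 were higher (13.6%, beside 1.12% of all genes) and none was lower, with a median log2 change of 0.022. At an unadjusted edgeR p under 0.05, 4 were higher and 3 lower. DESeq2 called 1 of the 22 and gave 8 no adjusted p. EGR1 had 16.4 and 14.5 CPM in BRD9 KO and 11 and 9.97 CPM in LacZ libraries without overlap (log2 fold change 0.56 ± 0.10 SE, adjusted p = 0.00252), while on day 1 its change was -0.14. The difference between the 2 days was 0.70 (adjusted p = 0.00447). From day 1 to day 2 EGR1 fell by 2.35 on the log2 scale in LacZ and by 1.65 in BRD9 KO cells, so the day 2 difference stands on a level that both groups had left. EGR1 lost the day 2 call without BRD9 KO replicate 1 (adjusted p = 0.0911) or LacZ replicate 2 (0.0536). KLF6 and KLF10 stood at 0.18 and 0.30 (adjusted p = 0.0191 and 0.0361). KLF10 lost the call without any one library (adjusted p up to 0.238, without BRD9 KO replicate 2), and KLF6 without BRD9 KO replicate 1 (0.0567), BRD9 KO replicate 2 (0.162) or LacZ replicate 1 (0.274). None of the list stayed called without BRD9 KO replicate 1, and 1 without each of the others.

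Among 14 targets of YAP and TEAD, the effectors of the Hippo pathway, 1 was higher and 2 were lower, so the list did not move one way. These are 7.14% and 14.3%, beside 1.12% and 1.58% of all genes. CYR61, a secreted matricellular protein, had 99.3 and 108.5 CPM in BRD9 KO and 86.1 and 82.3 CPM in LacZ libraries (log2 fold change 0.30 ± 0.05 SE, adjusted p = 0.00185), after -0.20 on day 1 (difference 0.49, adjusted p = 0.00118). AXL, a receptor tyrosine kinase, changed by -0.35 (adjusted p = 0.000516) and AJUBA by -0.20 (adjusted p = 0.0122, lost without any one library, with up to 0.104 without LacZ replicate 1).

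The lists for chaperones, glycolysis and amino acid stress held lower genes and no higher ones. The shares were 17.9%, 19.4% and 10.0%, beside 1.58% of all genes called lower. Among all genes from a log2 CPM of 8 upward, 21.6% were called in either direction. Of 28 endoplasmic reticulum chaperones and unfolded protein response genes, 5 were lower and none higher (median -0.058), of 36 hypoxia and glycolysis genes 7 were lower and none higher (median -0.033), and of 40 ATF4 targets and amino acid genes 4 were lower and none higher (median -0.035). HSPA5, the main chaperone of the endoplasmic reticulum, changed by -0.14 (adjusted p = 0.000188), and HSP90B1 and CALR by -0.09 and -0.08. SLC2A1, the glucose transporter, had 788 and 800.4 CPM in BRD9 KO and 909.7 and 900.5 CPM in LacZ libraries (log2 fold change -0.19 ± 0.02 SE, adjusted p = 8.74e-07), and the glycolytic enzymes ENO1 and GAPDH stood at -0.08 and -0.07 (adjusted p = 0.00067 and 0.00267). The stress genes NUPR1 and DDIT4 had larger changes, -0.36 and -0.34 (adjusted p = 0.000155 and 1.44e-05), and WARS, a tRNA synthetase, stood at -0.21. HSPA8, a cytosolic chaperone outside these lists, changed by -0.15 (adjusted p = 2.36e-07). HSP90B1 lost the call without LacZ replicate 1 (adjusted p = 0.0756), CALR without BRD9 KO replicate 1 (0.0645) or LacZ replicate 1 (0.0856), and GAPDH and WARS without BRD9 KO replicate 1 (0.0509 and 0.0627). Of the 28, 1 was lower without LacZ replicate 1 and 2 without BRD9 KO replicate 1. Of the 36, 2 to 4 were lower without any one library, and of the 40, 2 without BRD9 KO replicate 1.

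In the translation, splicing and cytoskeleton lists most called members were lower too. The share called among all genes from a log2 CPM of 8 upward was 21.6%, in either direction. Of 79 ribosomal protein genes 5 were lower (6.33%, beside 1.58% of all genes) and none higher, with a median of -0.037 and 10 of the 79 above 0. At an unadjusted edgeR p under 0.05, 27 were lower and 1 higher, beside 1079 and 998 of all 15027 genes. By adjusted p, 0 were lower without LacZ replicate 2, 1 without BRD9 KO replicate 1 and 7 without BRD9 KO replicate 2. Of 48 translation factors 3 were lower (6.25%) and none higher, with 1 to 3 lower when 1 library was left out and the fewest without BRD9 KO replicate 1. At an unadjusted edgeR p under 0.05, 10 of the 48 were lower and 7 higher. Of 40 splicing factors of the SR and hnRNP families 5 were lower and 1 higher (12.5% and 2.5%, beside 1.58% and 1.12% of all genes). With 1 library left out, 2 to 4 of the 40 were lower, the fewest without BRD9 KO replicate 1. Of 32 actin cytoskeleton and serum response genes 6 were lower and 1 higher (18.8% and 3.12%). ACTN4 and FLNA, which cross-link actin, changed by -0.18 and -0.09, and VCL, which anchors actin at adhesions, by 0.09. On day 1, 8 of the 32 were called lower, with a median log2 change of -0.077 beside -0.007 on day 2, and FLNA then stood at -0.18. By the interaction test the effect moved up from day 1 to day 2 in 4 members and down in none. ACTG1, a cytoplasmic actin, went from -0.12 (adjusted p = 5.16e-05) to 0.03, which was not called.

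**Figure D4:**
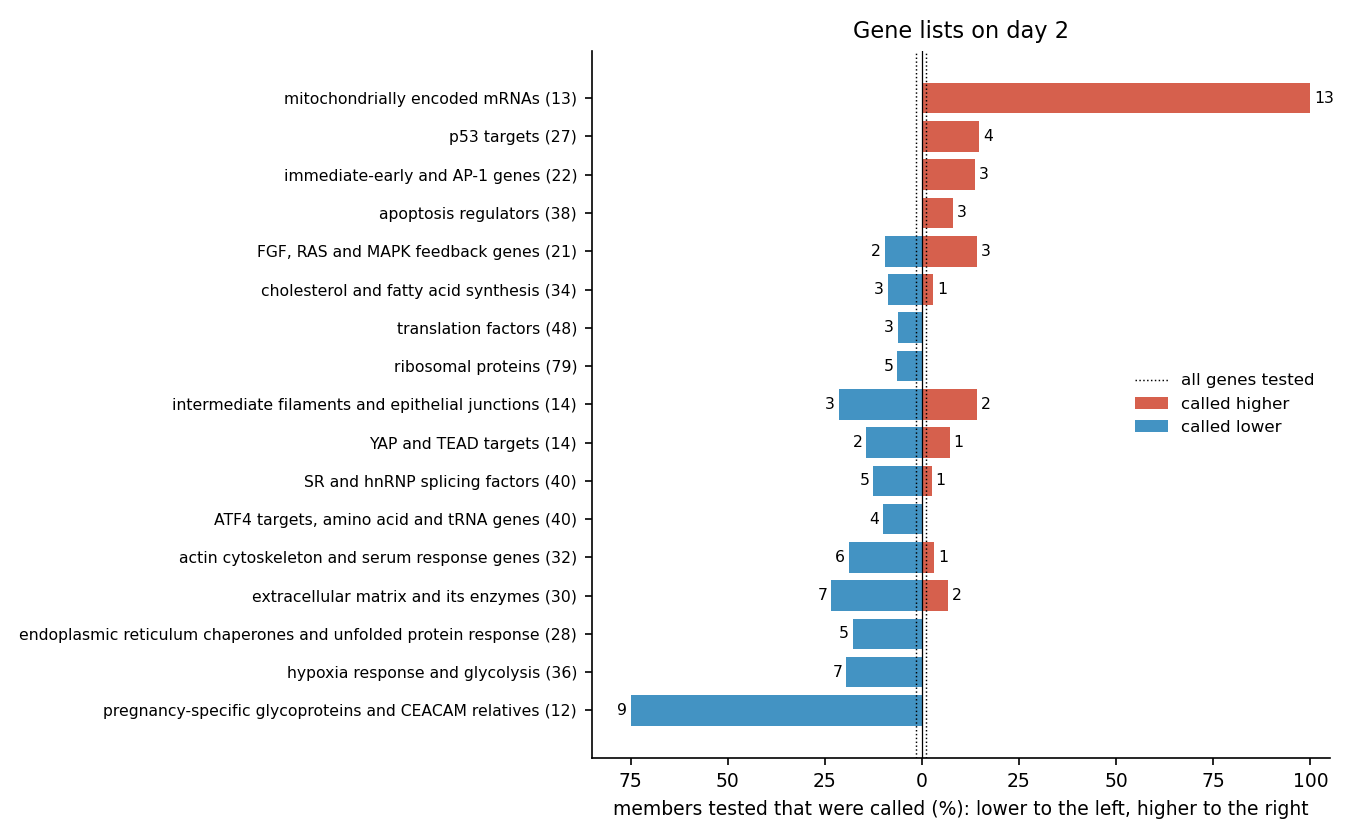
Share of the tested members of each gene list (number tested in brackets) called higher (red, to the right) or lower (blue, to the left) on day 2, in percent, with the number called beside each bar; dotted lines mark the shares over all genes tested, 1.12% higher and 1.58% lower. Lists with at least 3 called members are drawn, and the mitochondrial mRNAs and the PSG genes stand at the ends with 13 and 9 called members.

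No cell cycle gene of the lists for mitosis and replication passed the test on day 2. None of 50 G2/M and mitosis genes and none of 47 S phase genes was called by edgeR, DESeq2 or limma, but DESeq2 gave no adjusted p to 7 and 12 of them. At an unadjusted p under 0.05 the numbers were 3 higher and 5 lower, and 2 higher and 0 lower, beside 998 and 1079 of all 15027 genes. Their log2 changes ran from -0.12 to 0.22 and from -0.15 to 0.10, with medians of -0.014 and -0.009. TOP2A, the topoisomerase of mitotic chromosomes, had 615 and 611 CPM in BRD9 KO and 618 and 598 CPM in LacZ libraries, and the groups overlapped. MCM7, of the replicative helicase, had 300.4 and 305 CPM against 312 and 316 CPM (log2 fold change -0.05, adjusted p = 0.465). On day 3, 32 of the 50 and 26 of the 47 were lower (64.0% and 55.3%, beside 5.85% of all genes), with medians of -0.181 and -0.146. The effect on day 3 was below that on day 2 by the interaction test in 6 of the 50 and 4 of the 47, including TOP2A by -0.21 (adjusted p = 0.00118) and TYMS, the thymidylate synthase, by -0.19 (adjusted p = 0.0114). Of 21 cyclin D, CDK and RB genes, 1 was higher and 1 lower on day 2 (4.76% each, beside 1.12% and 1.58% of all genes). RB1 was higher by 0.21 and CDKN1B, the inhibitor p27, stood at -0.24 (adjusted p = 0.0205 and 0.0184), and DESeq2 called neither. Both also lost it without BRD9 KO replicate 1 (0.0768 and 0.288), LacZ replicate 1 (0.223 and 0.193) or LacZ replicate 2 (0.0607 and 0.0573), and RB1 without BRD9 KO replicate 2 (0.135).

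Of 27 targets of p53 tested, 4 were higher and none lower (14.8% higher, beside 1.12% of all genes). Their median log2 change was 0.074, and 23 of the 27 were above 0, beside 7484 of all 15027 genes. BAX, a pore-forming activator of apoptosis, had 118 and 124 CPM in BRD9 KO and 101 and 106 CPM in LacZ libraries (log2 fold change 0.22, adjusted p = 0.0349). MDM2, the p53 ubiquitin ligase, and FDXR, a mitochondrial reductase, stood at 0.17 and 0.18 (adjusted p = 0.0119 and 0.043), and CCNG1, the most abundant uncalled member, at 0.02. Among 38 apoptosis regulators 3 were higher (7.89%, beside 1.12% of all genes) and none lower. BAX and the inhibitor XIAP (0.28, adjusted p = 0.00482) were among the 3. BAX and FDXR lost the call without any one library, with adjusted p up to 0.288 and 0.244, both without LacZ replicate 1. MDM2 and XIAP lost it without BRD9 KO replicate 1 (0.288 and 0.112) or LacZ replicate 2 (0.168 and 0.105). Of each list, 0 stayed called without BRD9 KO replicate 1 or LacZ replicate 2. Limma on TPM gave MDM2 a log2 change of the other sign, -0.06.

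Inflammatory and interferon genes were called in small numbers, all higher. Of 19 NF-kB and inflammatory genes 2 were higher (10.5%, beside 1.12% of all genes), and the median of the 19 was 0.067. The 2 were RELB, an NF-kB subunit, at 0.33 and ICAM1, an adhesion receptor, at 0.17. Of 33 interferon and nucleic acid sensing genes 2 were higher (6.06%), and the median of the 33 was 0.018. The 2 were DDX58, the RNA sensor RIG-I, at 0.36 and IFI6 at 0.32. NOTCH3, a receptor in the list of TGF-beta, BMP and Notch genes, stood at 0.23. ICAM1 and DDX58 lost the call without any one library, with adjusted p up to 0.256 and 0.0982. RELB lost it without BRD9 KO replicate 1 (0.0671), BRD9 KO replicate 2 (0.206) or LacZ replicate 1 (0.348), NOTCH3 without the same libraries (0.0858, 0.0681 and 0.212), and IFI6 without BRD9 KO replicate 2 (0.0587) or LacZ replicate 2 (0.105).

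Day 2 lay between its neighbours in the number of called genes, with 81 on day 1, 406 on day 2 and 1569 on day 3. Each day has its own LacZ libraries. Of the 406 genes called on day 2, 321 (79.1%) had the same sign on day 1, beside 55.6% of all genes tested, and 44 (10.8%) were called the same way there. On day 3, 376 (92.6%) had the same sign, beside 61.6% of all genes, 284 (70.0%) were called the same way and 4 the opposite way. The 284 are 18.1% of the genes called on day 3, and the 44 are 54.3% of those called on day 1. The median change in the day 2 direction was 0.058 on day 1, 0.199 on day 2 and 0.189 on day 3, and since the genes were chosen on day 2 the day 2 value is raised by that choice. The genes that were lower carried over more often than those that were higher: 183 of 237 (77.2%) were lower on day 3 too, and 101 of 169 (59.8%) were higher, a difference that was not tested. There were 36 genes called on all 3 days, and 110 called on day 2 alone of the 3, 62 of them higher.

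The change from day to day was tested as an interaction. The day 2 effect differed from that of day 1 in 69 genes (0.459%), 24 upward (0.16%) and 45 downward (0.299%). The day 3 effect differed from that of day 2 in 118 genes (0.785%), 39 upward (0.26%) and 79 downward (0.526%). Of the 406 day 2 genes, 61 differed from day 1, of which 42 were lower genes that moved down, 18 were higher genes that moved up and 1 was a lower gene that moved up. In the second test 59 of the 406 differed between days 2 and 3, 15 upward and 44 downward. The tests share the day 2 libraries, and a difference that did not pass is not shown to be absent. BRD9 itself did not differ between the days, with differences of 0.18 and 0.03 (adjusted p = 0.735 and 0.962).

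**Figure D5:**
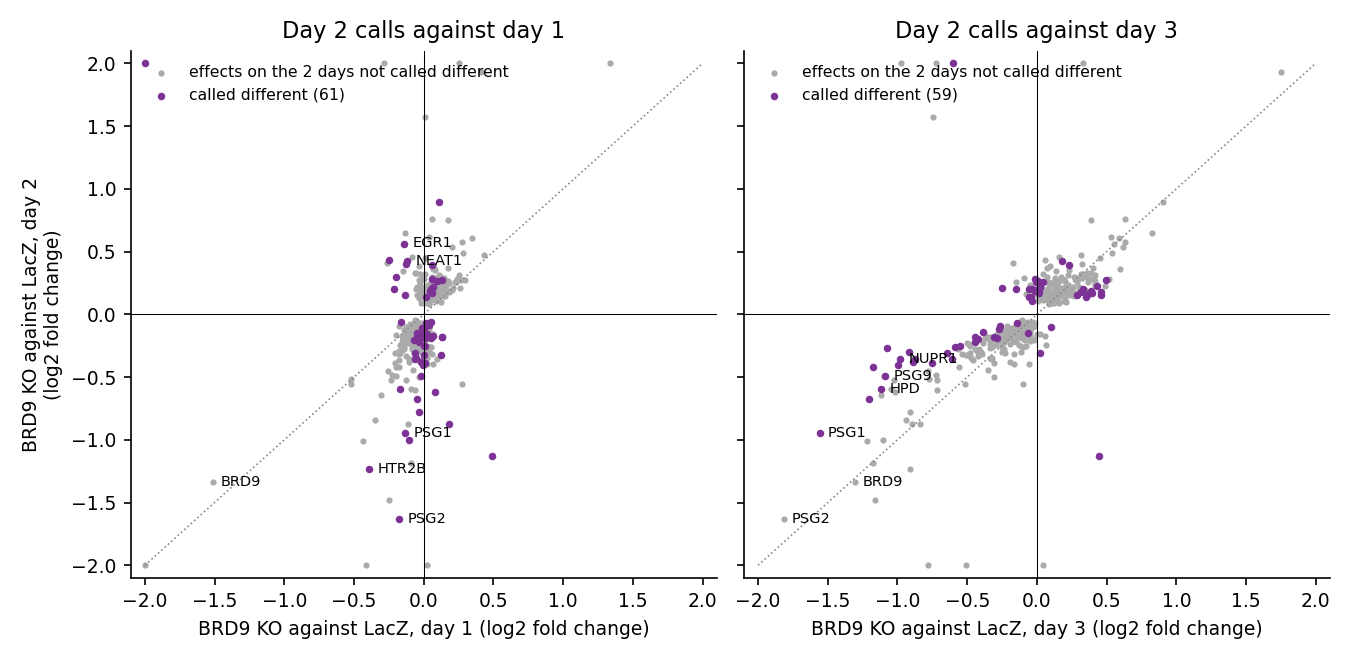
Log2 fold change on day 2 (vertical axis) against that on day 1 (left) and day 3 (right) for the 406 genes called on day 2, with values beyond 2 drawn at the edge; purple points are genes whose effects on the 2 days differed by the interaction test, and the dotted line marks equal effects. BRD9 is at -1.34 on day 2 against -1.51 on day 1 and -1.31 on day 3, without a called difference. PSG1 and PSG2 lie near 0 on day 1, and EGR1 and NEAT1 lie slightly below 0 on day 1. PSG1 has a larger fall on day 3 than on day 2, while that difference was not called for PSG2 (-0.19, adjusted p = 0.885 by the interaction test).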

How the data were processed

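RNA was extracted from G401 cells with TRIzol, and libraries were made by the authors from total RNA with the NEBNext Ultra kit, which keeps no strand. Per the labels and methods, the authors aligned reads to hg19 with STAR and quantified genes with RSEM, whose versions are not given in the sources used here. The deposited tables hold expected counts, estimated reads per gene, for 57820 genes, and 35.7% of the values above 0 were not whole. They were rounded here, and a total moved by at most 36.3. Beside them, the authors' tables also hold TPM, the expected count scaled by length and depth, used as an alternative with a pseudocount of 1.

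Genes were kept by filterByExpr (minimum count 10, minimum total 15). The 16 libraries were fitted as 8 groups with TMM normalization and glmQLFTest in edgeR 4.0.16 (R 4.3.3), leaving 8 residual degrees of freedom. A call is a Benjamini-Hochberg adjusted p under 0.05 over the 15027 genes tested. Duplicate symbols in a list were represented by their most abundant entry. Coordinates are GRCh37, from GENCODE v44 lifted to that build, as are the sequences before start sites.

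The 41 gene lists (1464 genes) and the rule for named genes were chosen with earlier results of these data known. The rule took BRD9, the 12 highest and 12 lowest called changes among genes averaging a log2 CPM of 1 or more without overlap of libraries, the 8 smallest p in each direction, up to 3 called members of each list per direction with up to 2 abundant uncalled members, and the 6 highest and lowest differences between days. Alternatives were DESeq2 1.42.0, its size factors in edgeR, limma-trend 3.58.1 on log2 TPM, other filters, fewer libraries, a replicate block, each library left out and thinning to 9185850 counts. The fit was tested on simulated data. Some named genes are not reported here.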

Additional observations from a re-analysis of the deposited data

Results flagged for a closer look

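Among the genes named in the text, the BRD9 KO effect on day 2 differed from that on day 1 by the interaction test of edgeR in the following, with the difference on the log2 scale in brackets. The effect moved down from day 1 to day 2 in COL1A1 (-0.30), CTD-2287O16.1 (-1.62), DDIT4 (-0.29), DSP (-0.09), HPD (-0.43), HSPA8 (-0.11), HTR2B (-0.84), MMRN1 (-0.24), PSG1 (-0.81), PSG2 (-1.45), PSG3 (-0.74), PSG5 (-0.62), PSG7 (-0.90), PSG9 (-0.47), SLC2A1 (-0.15) and SNCG (-1.05). It moved up in CYR61 (0.49), DLGAP1-AS2 (0.79), EGR1 (0.70), EMP1 (0.14), GPNMB (0.34), KRT18 (0.14), KRT8 (0.12), MALAT1 (0.53), MT-CO1 (0.15), MT-ND1 (0.22), MT-ND5 (0.17) and NEAT1 (0.54).

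The effect on day 3 differed from that on day 2 by the same test in a second set. It was lower on day 3 in ACTN4 (-0.13), CENPF (-0.19), COL1A1 (-0.25), FLNA (-0.17), GAPDH (-0.08), GPNMB (-0.17), HPD (-0.52), MMRN1 (-0.34), MT-CO1 (-0.26), MT-ND1 (-0.30), MT-ND5 (-0.26), NEAT1 (-0.24), NUPR1 (-0.62), PSG1 (-0.61), PSG5 (-0.53), PSG9 (-0.60), SLC2A1 (-0.10), TOP2A (-0.21) and TYMS (-0.19). It was higher on day 3 in COL6A1 (0.30), CTD-2287O16.1 (1.57), HSPA8 (0.09), KRT18 (0.21), KRT8 (0.22) and PLAU (0.12).

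The processed pseudogene CTD-2287O16.1 on chromosome 5 is the one gene of these that was lower on day 2 and had a positive change on both neighbouring days, 0.49 on day 1 and 0.44 on day 3, neither of which was called. On day 2 it had 6.06 and 8.53 CPM in BRD9 KO and 11.5 and 20.1 CPM in LacZ libraries (log2 fold change -1.13, adjusted p = 0.0104), and the call was lost without BRD9 KO replicate 1 (adjusted p = 0.203) or LacZ replicate 2 (0.212). As a near-copy of another gene its reads may be divided with that gene.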

How the results depend on the processing

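With DESeq2, 9614 of the 15027 genes were given no adjusted p on day 2. On day 2 the 406 calls became 273 with DESeq2 (263 shared), 409 with its size factors and 604 without a filter. They became 407 with a filter of 1 CPM, 327 with the day 2 libraries alone and 299 after thinning. The count fell to 103 with limma on log2 TPM (92 shared) and to 16 with a log2 change of at least 1. Leaving out any one of the 4 libraries gave 201 to 262 calls, the fewest without BRD9 KO replicate 1. For the BRD9 KO effect on day 2 minus that on day 1, the 69 calls became 13 with limma, 5 at a log2 change of at least 1, 246 without a filter (56.9% upward, beside 34.8% of the 69) and 44 to 60 with 1 library left out, the fewest without LacZ day 2 replicate 1. The 118 differences between days 2 and 3 became 24 with limma, 5 at a log2 change of at least 1, 300 without a filter and 71 to 98 with 1 library left out. MDM2 on day 2 had a log2 change of -0.0567 with limma (adjusted p = 0.913). The cause of these changes was not tested, beyond the smaller number of libraries when some are left out.

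The effect of leaving libraries out was tallied for 77 of the named genes called on day 2. Of these 77, 41 kept the call without each of the 4 libraries in turn and 36 lost it at least once. DESeq2 called 51 of the 77, left 6 uncalled and gave 20 no adjusted p. The tally does not include KRT80, which by the list counts given above lost the call without any one library. Nor does it include the mitochondrial ribosomal RNAs or the gene set apart above from the highest folds. Same-numbered BRD9 KO and LacZ libraries did not deviate together on day 2 (correlation of their deviations -0.0308 over all genes, -0.12 over 6297 abundant genes), and the labels give the numbers no meaning, so they were not taken as pairs. With the replicate number as a block, 367 genes were called on day 2 (337 shared), and 83 and 120 differed between the days. Depth limits the rarer genes most: 0.272% of those under a log2 CPM of 2 were called.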
